A study of Mus musculus with 2 samples.

Results

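The 31 genes described here encode the proteins that bring pyruvate into the mitochondrion and carry its carbon through the tricarboxylic acid (TCA) cycle, together with the kinases that switch pyruvate dehydrogenase off and the enzymes that export or refill cycle intermediates. They were taken by name, from a list of pathway members, out of 18595 annotated genes with at least 1 read, and all 31 were detected in both libraries. Long-read RNA sequencing had been carried out on hippocampus of the mouse (tissue labelled a layer of hippocampus), in adult animals of 6 months, strain B6NCrl, on the C57BL/6 background and described as male, with no treatment and no genetic change named. The labels give 1 group of 2 libraries, replicate 1 and replicate 2, from separate biosamples that carry the same donor identifier, so that a difference between the libraries may be technical. There is no second condition, and each test below compares 1 library with the other.

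Pyruvate, the end product of glycolysis, crosses the inner mitochondrial membrane through a carrier made of MPC1 and MPC2. The pyruvate dehydrogenase complex then turns it into acetyl-CoA, citrate synthase joins acetyl-CoA to oxaloacetate, and the cycle oxidises the resulting citrate step by step while reducing NAD+ and FAD for the respiratory chain. In brain the cycle also supplies the carbon skeletons of the transmitters glutamate and GABA, and pyruvate carboxylase, an enzyme known for its role in astrocytes, replaces what is drawn off.

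Replicate 1 held 1330153 reads and replicate 2 held 1366252. A level is given in CPM, reads of a gene per 1000000 reads of the library, and 1 read was worth 0.752 and 0.732 CPM. A long read covers a transcript as 1 count whatever its length, so CPM is not divided by length. Shares of a family per kilobase of model length are given where they change an order. Model length is the median over a gene's transcript models, weighted by reads, since lengths of single reads were not at hand. The summed level of the 10 choroid plexus markers was 14153 CPM in replicate 1 and 386 CPM in replicate 2, with all 10 higher in replicate 1 and Aqp1, Otx2 and Kcne2 at 0 in replicate 2. The 5 oligodendrocyte markers summed to 5082 and 6846 CPM, the 5 pan-neuronal markers to 5022 and 6215 CPM, the 6 astrocyte markers to 3517 and 3755 CPM and the 10 markers of hippocampal fields to 1130 and 1339 CPM. The 6 markers of meninges fibroblasts summed to 1201 and 2868 CPM, the 5 of microglia to 454 and 585 CPM and the 4 of endothelium to 276 and 365 CPM. The part of these differences in tissue content in any member's difference between libraries was not tested. In bulk tissue, fewer cells of a type and less RNA per cell cannot be told apart.

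Of the 31 genes, Mpc1 and Idh3g were read mainly in a form that the annotation does not hold, and the bases at those junctions are shown here because the reading frame turns on them. In Mpc1, the annotated transcripts Mpc1-208 and Mpc1-201 place a 4-base exon between the exon with the start codon and the next shared exon, whereas the leading chain of introns in both libraries joins these exons directly. The lines give the 24 bases on either side, 5′ to 3′ on the plus strand of mm10 between chr17:8283938-8296558, with the small exon in capitals.
Mpc1-208: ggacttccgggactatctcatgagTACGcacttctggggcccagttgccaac
Mpc1-201: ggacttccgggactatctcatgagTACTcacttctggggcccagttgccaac
Mpc1 leading chain: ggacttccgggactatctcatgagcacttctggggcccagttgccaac
In Idh3g, transcript Idh3g-201 has a 12-base exon that the leading chain lacks, while the exon before it runs 4 bases further in the leading chain. The lines cover chrX:73782080-73782698 on the minus strand, with the bases that differ in capitals.
Idh3g-201: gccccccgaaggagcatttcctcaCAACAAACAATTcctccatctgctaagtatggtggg
Idh3g leading chain: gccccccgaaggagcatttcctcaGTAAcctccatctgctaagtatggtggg

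The 31 genes together took 6323 CPM in replicate 1 and 6763 CPM in replicate 2 (6543 ± 311, SD, n = 2), on 8411 and 9240 reads. Their levels ranged from 5.90 ± 4.08 CPM for Pdk4 to 1192 ± 6.80 CPM for Mdh1 (SD, n = 2). The malate dehydrogenases and fumarase formed the largest sum, at 2354 ± 54.0 CPM, followed by the isocitrate dehydrogenases at 1266 ± 54.7, the pyruvate dehydrogenase complex at 770 ± 75.1, the pyruvate carrier at 627 ± 17.5 and succinyl-CoA ligase at 590 ± 11.9 CPM. Lower sums were those of citrate synthase with cytosolic aconitase (383 ± 86.6 CPM) and the oxoglutarate dehydrogenase complex, counted without Dld (186 ± 31.9). The pyruvate dehydrogenase kinases (134 ± 14.8) and the malic enzymes Me1 and Me3 (109 ± 12.6) came next. Acly stood at 94.9 ± 6.60 CPM and Pcx at 30.3 ± 8.87 CPM. In this order the kinases and the malic enzymes, and the malic enzymes and Acly, overlapped in mean ± SD, and the other neighbours did not. Without genomic and incomplete reads the oxoglutarate dehydrogenase complex stood at 70.8 ± 4.43 CPM and the kinases at 106 ± 19.0 CPM, so their order was the other way round. In that setting 8 single members (Acly, Dlst, Me1, Me3, Ogdh, Ogdhl, Pcx and Pdk1) were lower by more than 1.5 times.

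**Figure D1:**
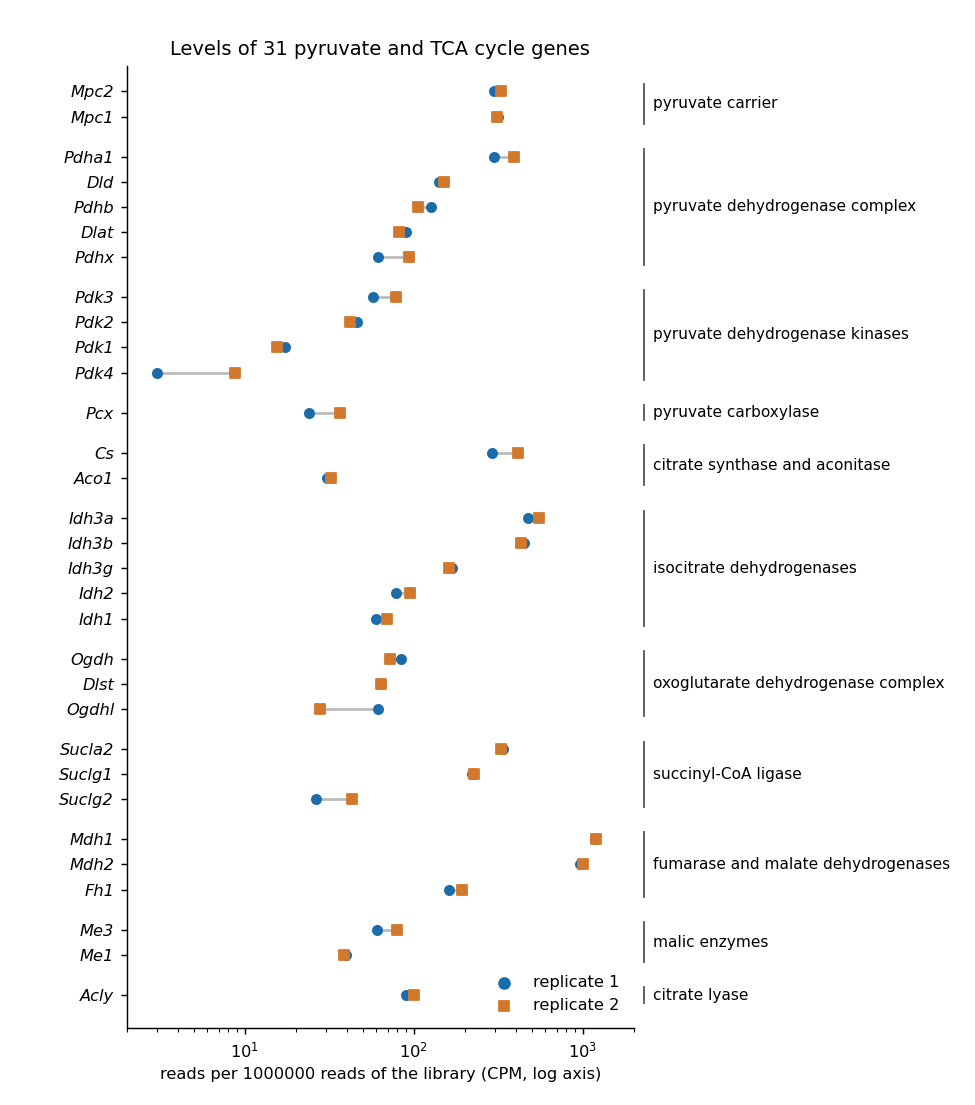
Levels in CPM (log axis) of the 31 genes, grouped by role, with a circle for replicate 1, a square for replicate 2 and a grey line between them. Mdh1 and Mdh2 lie highest in both libraries, and the widest gaps are those of Pdk4, which rests on 4 and 12 reads, and Ogdhl.

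The genes on which the comparison and the splice choices turn are Mpc1 (ENSMUSG00000023861.17, chr17:8282904-8297661), Pdha1 (ENSMUSG00000031299.10, chrX:160122209-160138413), Pdhx (ENSMUSG00000010914.10, chr2:103021075-103073513), Cs (ENSMUSG00000005683.8, chr10:128337734-128362479), Idh3g (ENSMUSG00000002010.17, chrX:73778963-73786897) and Ogdhl (ENSMUSG00000021913.8, chr14:32322019-32348151), placed on mm10 by GENCODE M21.

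Between the libraries, 4 of the 31 genes passed the test at an adjusted p of 0.05. Cs, Pdha1 and Pdhx were higher in replicate 2 and Ogdhl was higher in replicate 1. Fisher's exact test of each gene's reads against the rest of the library, adjusted by Benjamini and Hochberg's method over all 11891 genes with at least 10 reads, called 707 genes or 5.95%, split into 2.56% with more reads in replicate 1 and 3.38% with more in replicate 2. The 4 calls are 12.9% of the 31 members. In level, 29 members stood at or above the percentile of Pcx, 72.4, among detected genes, and the part of read depth in the count of calls was not tested. The median log2 ratio of replicate 1 to replicate 2 was -0.06 over the members and -0.05 over all genes tested, and 12 members had a ratio above 0. This test sets a difference against counting error alone. With edgeR's exact test, which allows for a biological coefficient of variation of 16.1% estimated from the same libraries, no member passed and 49 genes passed in all; at an unadjusted p under 0.05 that test had 1 member and 433 genes. Because that coefficient comes from the libraries being compared, a difference between them raises it, and the lack of a call there does not show equal levels.

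Both partners of the pyruvate carrier were read at similar levels. Mpc1 had 315 and 310 CPM on 419 and 424 reads, and Mpc2 had 299 and 329 CPM on 398 and 449 reads. Mpc1 made up 51.3% of carrier reads in replicate 1 (exact Clopper-Pearson 95% interval 47.8 to 54.8) and 48.6% in replicate 2 (45.2 to 51.9), so the partner with more reads was not the same in both. Mpc2 was read almost only as transcript Mpc2-201, with 367 of 398 and 420 of 449 reads. An unannotated Mpc2 chain that skips a 41-base exon held 7 and 8 reads.

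For Mpc1, exon 1 was joined directly to the shared exon in 376 of 392 reads of replicate 1 (95.9%) and 381 of 394 of replicate 2 (96.7%). The 4-base exon TACG of Mpc1-208, or TACT of Mpc1-201, was on 0 reads as an exon of its own in both libraries, and an 81-base exon of Mpc1-202 was on 12 and 10 reads. Read from the start codon of Mpc1-208, the annotated chain runs for 109 codons, while the direct join of the lines above meets a stop after 42 codons, 172 bases before the last exon junction. The tables hold each read's chain of introns and not its bases, so whether the molecules carry the 4 bases was not tested. Some further reads shifted a splice site beside this junction: 6 and 5 reads used an acceptor 8 bases earlier, the acceptor of Mpc1-201, and ran on without a further intron, so that on these few reads the bases TACT are part of a longer exon. Further unannotated chains of Mpc1 held 8 and 7, 5 and 5, and 4 and 3 reads. The pseudogene Mpc1-ps on chromosome 12, an intron-less copy, holds the 40 bases around TACG of Mpc1-208 without a gap and does not hold the directly joined form. It had 140 and 132 reads, of which 140 and 131 were unspliced, so reads of gene and copy could be placed on either, and the levels of Mpc1 are uncertain to that extent.

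The pyruvate dehydrogenase complex was led by its E1 alpha subunit. Pdha1 had 298 and 392 CPM, on 396 and 535 reads, and was 1.32-fold higher in replicate 2 (Fisher's exact test, adjusted p = 0.00145). Pdhb, the E1 beta subunit that pairs with it, had 126 and 106 CPM and did not pass (adjusted p = 0.489). Dlat, the E2 acetyltransferase core, had 90.2 and 81.2 CPM, and Dld, the E3 dehydrogenase shared with other 2-oxoacid complexes, had 141 and 150 CPM. Pdhx, which anchors E3 to the core, had 61.6 and 93.7 CPM and was 1.52-fold higher in replicate 2, close to the threshold (adjusted p = 0.0497), and it did not pass with edgeR's TMM library sizes. Pdha1 took 41.6% and 47.6% of the complex's reads and Pdhb 17.6% and 12.9%. Dld took 19.6% and 18.2%, above Pdhb in both libraries. Per kilobase of model length the average shares were 39.2% for Pdha1, 25.2% for Pdhb and 18.6% for Dld. This left Pdha1 the highest and put Pdhb above Dld. The average shares of Dlat and Pdhx changed order too, with Pdhx the higher per kilobase. The leading models were Pdha1-201, Pdhb-201, Dlat-201, Dld-201 and Pdhx-201, with mean shares from 72.8% for Dlat to 87.4% for Pdha1. Pdha1 also had 31 and 39 unspliced reads of the genomic class around its 3′ end.

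Of the 4 kinases that phosphorylate and inactivate pyruvate dehydrogenase, Pdk3 and Pdk2 held most reads. Pdk3 had 76 and 107 reads, Pdk2 had 61 and 57, Pdk1 had 23 and 21, and Pdk4, the isoform known for its rise in fasting, had 4 and 12. As shares of kinase reads, Pdk3 took 46.3% (interval 38.5 to 54.3) and 54.3% (47.1 to 61.4), and Pdk2 took 37.2% (29.8 to 45.1) and 28.9% (22.7 to 35.8). The intervals of Pdk3 and Pdk2 overlapped in replicate 1 and not in replicate 2. Without genomic and incomplete reads, Pdk3 took 58.4% of the family on average. None of the kinases passed the test between libraries, with Pdk3 the nearest (1.37-fold higher in replicate 2, adjusted p = 0.267). Pcx, the carboxylase that makes oxaloacetate from pyruvate, had 32 and 50 reads (24.1 and 36.6 CPM, adjusted p = 0.380), and its full-length transcript Pcx-201 of 21 exons held 11 and 22 of them.

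Citrate synthase showed the smallest adjusted p among the members. Cs had 291 and 412 CPM, on 387 and 563 reads, 1.42-fold higher in replicate 2 (Fisher's exact test, adjusted p = 8.23e-06). Its leading transcript Cs-201 took 79.6% and 85.6% of reads. The citrate synthase-like gene Csl shares 11.2% of the 25-base words of Cs-201 and had 0 reads in both libraries. Aco1, the cytosolic aconitase that also serves as an iron-regulatory protein, had 30.8 and 32.2 CPM.

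Among the isocitrate dehydrogenase genes, the subunits of the NAD-dependent enzyme had the most reads. Its catalytic subunit Idh3a had 472 and 547 CPM, and the regulatory subunits Idh3b and Idh3g had 448 and 431 CPM and 168 and 162 CPM. The NADP-dependent isozymes were lower, with 78.9 and 95.2 CPM for mitochondrial Idh2 and 59.4 and 69.5 CPM for cytosolic Idh1. Idh3a made up 43.4% and 48.0% of the reads of the 3 subunits, Idh3b 41.2% and 37.8%, and Idh3g 15.5% and 14.2%. Per kilobase of model length Idh3b came first at 45.8% and Idh3a came after it at 33.2%, so the order of these 2 subunits depends on the scale. Idh3a did not pass the test between libraries (1.16-fold higher in replicate 2, adjusted p = 0.0920). Idh2 took 57.1% and 57.8% of the reads of the NADP pair, with intervals of 49.6 to 64.3 and 51.0 to 64.3.

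**Figure D2:**
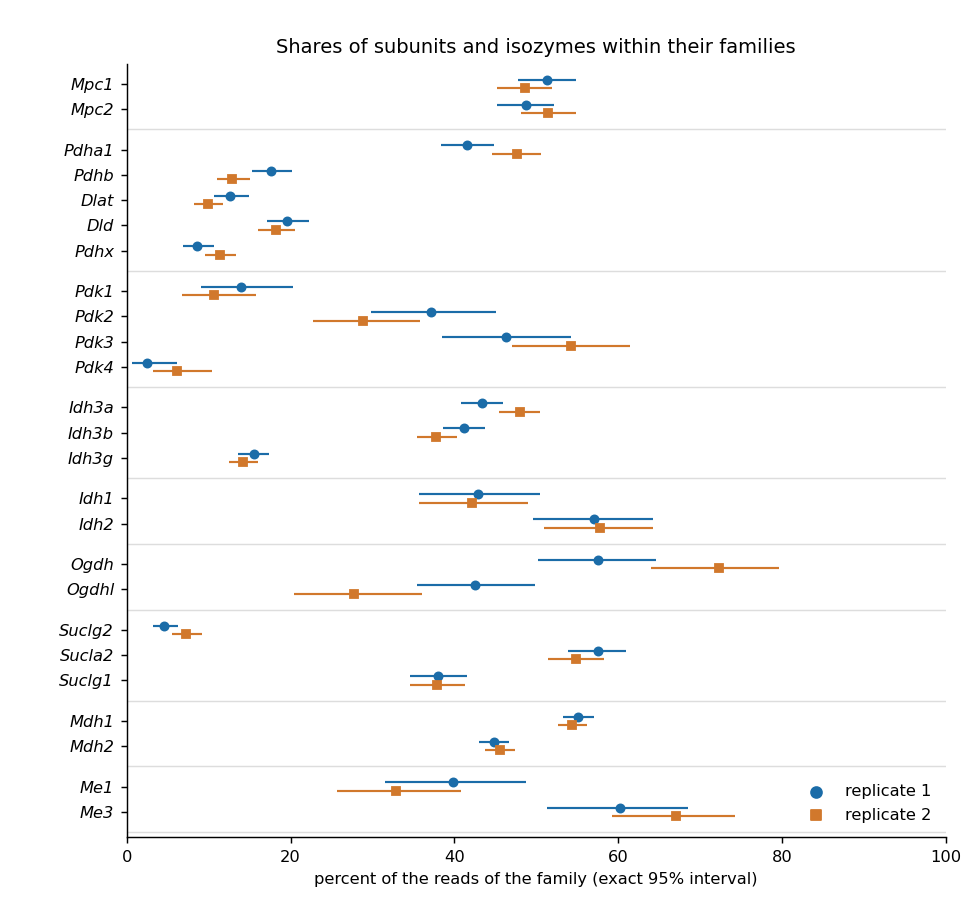
Percent of a family's reads held by each member, with exact 95% Clopper-Pearson intervals, for replicate 1 (circles) and replicate 2 (squares). The carrier partners and the malate dehydrogenases sit near equal shares, while Suclg2 and Pdk4 stay below 10% in both libraries.

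Idh3g, like Mpc1, was read mostly outside the annotation. Its leading 12-exon chain held 185 of 224 reads in replicate 1 and 181 of 221 in replicate 2, while annotated Idh3g transcripts held 1.57% of reads on average. At the junction shown above, the exon running 4 bases further, with GTAA at its end, was on 196 of 206 reads (95.1%) and 201 of 204 (98.5%). The 12-base exon of Idh3g-201 was on 0 reads, and the direct join of Idh3g-205 on 9 and 3. From the start codon of Idh3g-201 the annotated chain gives 393 codons, and the leading chain, whose length differs by 8 bases, gives 46. Other unannotated Idh3g chains held 8 and 12, 7 and 3, and 4 and 2 reads. Here too the reads' own bases are not in the tables. Of the 6262 genes with at least 20 reads outside the genomic class in each library, 250 (3.99%) led with an unannotated spliced chain, and Mpc1 and Idh3g were 2 of the 28 members that could be assessed.

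Idh3b had a choice of last exon. The intron of Idh3b-201 that ends where its long last exon begins was on 552 of 586 reads and 537 of 585. An unannotated intron with the same start led to a short last exon on 33 (5.63%, interval 3.91 to 7.82) and 47 (8.03%, 5.96 to 10.5). Both ends keep an open frame, with 384 codons for Idh3b-201 and 380 for the short form. The lines show the first 30 bases of each last exon, on the minus strand, chr2:130279697-130279726 and chr2:130279408-130279437; 19 of the 30 bases are identical.
Idh3b long last exon: gtacggactcgagacatgggaggctacagc
Idh3b short last exon: gttcgaacctcagatatgggtggttatgcc
Another unannotated chain of Idh3b skipped a 99-base exon on 11 and 12 reads, a length divisible by 3. A 13-exon chain held 11 and 12 reads, with the last intron of Idh3b-201 and a further 118-base intron that ended at the short last exon. These reads are among the 552 and 537, so the share given for the short last exon leaves them out. The span of Idh3b overlaps that of Nop56, which had 109 and 139 reads of its own.

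Counted here without Dld, the shared E3 subunit placed with pyruvate dehydrogenase, the oxoglutarate dehydrogenase complex was the least read of the cycle's own complexes. Ogdh, its E1 subunit, had 83.4 and 72.5 CPM on 111 and 99 reads, and Dlst, the E2 succinyltransferase, had 63.9 and 63.7 CPM on 85 and 87 reads. Ogdhl, a relative of E1, had 61.6 and 27.8 CPM on 82 and 38 reads, 2.22-fold higher in replicate 1 (Fisher's exact test, adjusted p = 0.00137). Nearly all Ogdhl reads, however, were unspliced. A 332-base model in its last exon (chr14:32347820-32348151) held 81 and 37 of them, and 1 read in replicate 2 followed a spliced annotated transcript. Without genomic and incomplete reads Ogdhl was no longer tested, for lack of reads, and Ogdh took 98.9% of the pair. The level of Ogdhl and its difference between the libraries thus rest on unspliced reads of the last exon, and antisense loci over the gene held a further 15 and 10 reads.

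Ogdh itself was read in pieces, and in alternative forms at a known exon choice. Its full-length transcript Ogdh-201 held 19 and 18 reads, and incomplete matches made up 49.1% of its reads on average. At the choice, 33 of 45 informative reads in replicate 1 (73.3%, interval 58.1 to 85.4) and 27 of 46 in replicate 2 (58.7%, 43.2 to 73.0) carried a 103-base exon. The alternative pair of a 91-base and a 45-base exon was on 8 and 15 reads, and the 91-base exon alone on 3 and 3. The lines show the exons on the plus strand, chr11:6316978-6317080 for the 103-base exon and chr11:6316765-6324922 for the pair, with the 45-base exon in capitals.
Ogdh 103-base exon: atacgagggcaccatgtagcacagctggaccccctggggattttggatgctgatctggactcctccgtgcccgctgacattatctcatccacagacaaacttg
Ogdh 91-base and 45-base exons: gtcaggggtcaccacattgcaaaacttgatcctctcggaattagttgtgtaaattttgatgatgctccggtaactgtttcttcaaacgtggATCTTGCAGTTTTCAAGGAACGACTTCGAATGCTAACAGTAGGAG
Aligned end to end, the 103-base and 91-base exons share 54 of 90 aligned bases (60.0%). Both forms keep the frame open, with 1023 codons for Ogdh-201 and 1034 for Ogdh-203. Unspliced reads of Ogdh numbered 20 and 22, but 0 and 22 of them were placed in the genomic class, so class shares of this gene cannot be set against each other between the libraries. The same held for Dlst, with 18 and 21 unspliced reads of which 17 and 0 were called genomic.

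Succinyl-CoA ligase pairs an alpha subunit, Suclg1, with either an ATP-forming beta subunit, Sucla2, or a GTP-forming one, Suclg2. Sucla2 had 335 and 329 CPM, Suclg1 221 and 227 CPM, and Suclg2 26.3 and 43.2 CPM. Sucla2 thus took 57.5% and 54.9% of the reads of the 3 genes and Suclg2 4.52% and 7.21%, with no overlap of their intervals in either library. Suclg2 was 1.64-fold higher in replicate 2, which did not pass (adjusted p = 0.199). Annotated copies that share at least 10% of a member's 25-base words, Gm15163 for Suclg2 (29.2%), Gm6123 for Pdhb (46.5%) and Gm7049 for Me1 (36.8%), had 0 reads in both libraries. A chain of Sucla2 that skips a 181-base exon was on 8 and 11 reads, and 2 chains with a shifted splice site were on 3 and 3 and on 2 and 3.

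The last steps held the most abundant members. Mdh1, the cytosolic malate dehydrogenase of the malate-aspartate shuttle, had 1187 and 1197 CPM on 1579 and 1635 reads. Mdh2, its mitochondrial counterpart, had 966 and 1002 CPM on 1285 and 1369 reads. Mdh1 made up 55.1% (53.3 to 57.0) and 54.4% (52.6 to 56.2) of their reads. Per kilobase of model length the order was the other way round, with Mdh2 at 54.6%, so their relative level depends on the scale. Fh1, the fumarase, had 162 and 193 CPM (adjusted p = 0.338), and Fh1-201 held 92.1% and 93.9% of its reads. Mdh1-201 held 87.8% and 87.4% and Mdh2-201 92.7% and 93.1% of theirs.

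Of the malic enzymes, which turn malate back into pyruvate with NADP+, mitochondrial Me3 had 60.1 and 79.0 CPM and cytosolic Me1 39.8 and 38.8 CPM. Me3 took 60.2% (51.3 to 68.5) and 67.1% (59.2 to 74.3) of their reads. Me3 was read in several forms. After exon 6, 25 of 74 reads in replicate 1 (33.8%) and 33 of 100 in replicate 2 (33.0%) ran into an early terminal exon, the one of Me3-206, in place of going on to the remaining exons. In that form the frame of Me3-202 would end after 271 of its 604 codons. A 326-base stretch at the start of the gene was removed as an intron on 34 of 66 reads (51.5%, 38.9 to 64.0) and 33 of 94 reads (35.1%, 25.5 to 45.6). That intron is not annotated in combination with the rest of Me3-202. Reads without it were those with the first intron of Me3-202, wherever they began. A read that began after the stretch thus counted as without, and the shares may be too low. Full-length Me3-202 held 16 and 42 reads and the 15-exon chain with the extra intron 16 and 17. A chain of 8 exons held 10 and 11 reads, and an incomplete chain of 7 exons held 9 and 12. Models of the 8-exon chain were classed partly as incomplete and partly as a new combination of annotated splice sites.

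Acly, the cytosolic ATP citrate lyase that makes acetyl-CoA for lipid synthesis and acetylation, had 90.2 and 99.5 CPM. A 30-base exon was included in 37 of 65 reads in replicate 1 (56.9%, interval 44.0 to 69.2) and 59 of 75 in replicate 2 (78.7%, 67.7 to 87.3). Its bases, which add 10 codons (1101 against 1091), are shown on the minus strand of chr11:100503160-100503189.
Acly 30-base exon: ATTCAGTCCCAAGTCCAAGATCCCTGCAAG
The leading model Acly-203, which carries the exon, held 30 of 120 and 55 of 128 reads, Acly-201, which lacks it, 25 and 13, and an incomplete 12-exon chain 20 and 20. This shift in the leading model's share was the closest to a call among the members (Fisher's exact test, adjusted p = 0.0883 over 6262 genes), followed by Me3 (adjusted p = 0.138). Acly had 9 and 8 unspliced reads, of which 0 and 8 were called genomic and left out of the totals of 120 and 128. The effect of this on the shift was not tested.

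**Figure D3:**
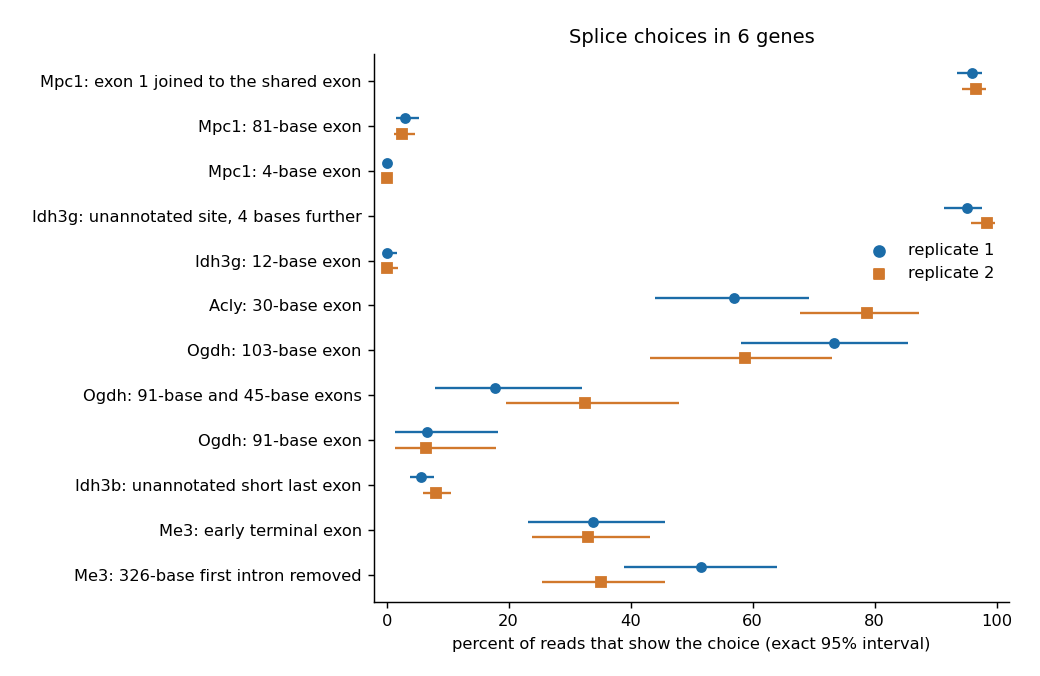
Percent of informative reads that show each splice choice, with exact 95% Clopper-Pearson intervals, in replicate 1 (circles) and replicate 2 (squares). The unannotated joins of Mpc1 and Idh3g lie above 95% in both libraries, the small annotated exons at 0, and the choices in Acly, Ogdh and Me3 between these limits.

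Chains outside the annotation with at least 2 reads in each library numbered 25, in 11 of the members, on 738 and 751 reads in all. Beside those described, Idh3a had 3 such chains with a shifted splice site (12 and 9, 5 and 12, and 6 and 4 reads), and Pdha1 had chains of 8 and 4 and of 3 and 4 reads. Mdh1 (7 and 5 reads), Mdh2 (5 and 2) and Dlst (3 and 2) had 1 each, a small part of each gene's reads.

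Across the 28 members with enough reads, the leading model took a median of 82.7% of the gene's reads outside the genomic class, against 70.4% over all 6262 genes. Of the 28, 10 members were above 85% and 4 below 50%, the latter being Ogdh, Me3, Acly and Pcx. No member's leading share passed Fisher's exact test between the libraries, where 3.19% of all genes tested were called. The totals in that test leave out genomic reads. Unspliced reads of Acly, Ogdh, Dlst, Pdk2, Pcx, Me1 and Dld were called genomic unevenly between the libraries. Genomic calls took 8 and 0 of the 8 and 6 unspliced reads of Pdk2, and 0 and 6 of the 3 and 6 of Pcx. They took 1 and 7 of the 10 and 7 of Me1, and 3 and 0 of the 3 and 4 of Dld. The effect of this on the test of leading shares was not tested. Ogdhl, Pdk1 and Pdk4 lacked the 20 reads. Annotated transcripts held 75.8% and 78.2% of member reads, and 70.4% and 72.6% of the reads of all annotated genes. Reads of the genomic class made up 1.96% and 1.58% of member reads, and 8.75% and 6.73% over all annotated genes. New combinations of annotated splice sites made up 6.62% and 6.26% of member reads, most of them the leading chain of Mpc1.

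**Figure D4:**
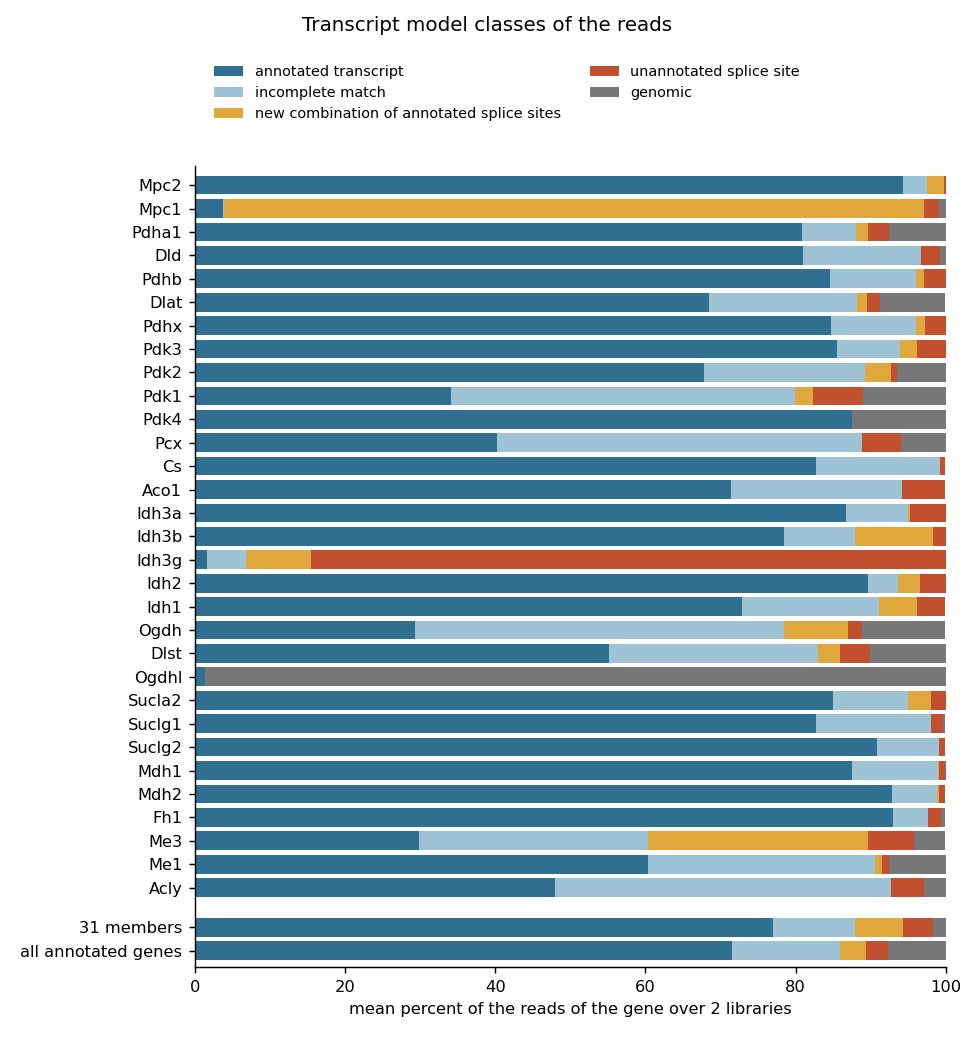
Mean percent of each gene's reads over 2 libraries that fell in each class of transcript model, with the 31 members pooled and all annotated genes below. Mpc1 and Idh3g stand out by their unannotated chains, Ogdhl by its genomic reads, and Ogdh, Pcx, Pdk1 and Acly by incomplete matches.

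Reads on a complete chain of introns, annotated or not, ranged from 98.9% of Mpc1 to 39.8% of Ogdh and 1.32% of Ogdhl. Complete here means outside the incomplete and genomic classes. Whether such reads reach both ends of a transcript was not tested. Members with long transcripts had a smaller share of reads on complete chains. Across the 31 genes, the share ran against the length of the longest coding transcript (Pearson r = -0.66, Spearman rho = -0.78) and with the level (r = 0.46, rho = 0.53). These are descriptions across genes that share the same 2 libraries, and genes are not independent replicates. Suclg2 (3367 bases) and Pdk4 (3484 bases) had 91.8% and 87.5%, the latter on 16 reads in all.

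**Figure D5:**
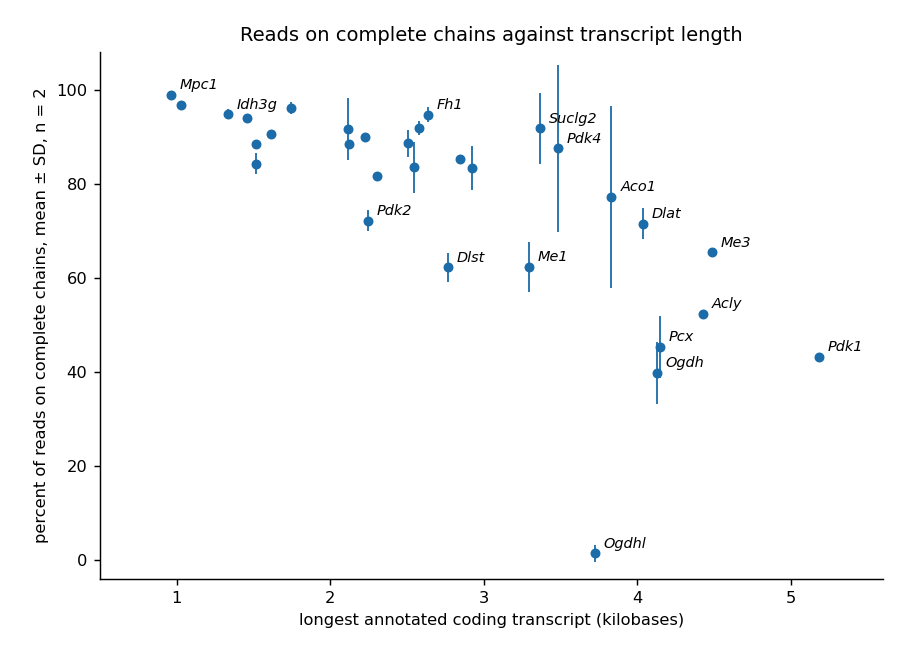
Percent of reads on complete intron chains (mean ± SD, n = 2) against the length of the longest annotated coding transcript in kilobases, 1 point per gene. Genes under 2 kilobases lie above 80%, and Pdk1, Ogdh, Pcx and Acly, all above 4 kilobases, lie between 39.8% and 52.3%, while Dlat and Me3, also above 4 kilobases, lie at 71.5% and 65.4%.

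The neighbouring pathway was described with 37 related genes, of which 34 had enough reads. In this list 1 gene was higher in replicate 1 and 5 in replicate 2, 17.6% of the genes tested against 5.95% of all genes, with a median log2 ratio of -0.19 against -0.05 over all genes. Higher in replicate 2 were Glud1, which releases oxoglutarate from glutamate (151 and 269 CPM, adjusted p = 2.96e-09), Got1, the cytosolic aspartate transaminase (589 and 767 CPM, 1.79e-06), Pkm, the pyruvate kinase (1818 and 2108 CPM, 5.65e-06), Ldha (1171 and 1348 CPM, 0.00176) and Sdha, the flavoprotein of succinate dehydrogenase (622 and 749 CPM, 0.00284). Ldhb, the other lactate dehydrogenase subunit, was higher in replicate 1 (1618 and 1414 CPM, 8.01e-04). These adjusted p-values are from Fisher's exact test, which sets a difference against counting error alone. The folds between libraries ran from 1.14 for Ldhb to 1.78 for Glud1. With edgeR's exact test none of these genes passed, under the limit given above for that test. The part of read depth in the count of calls was not tested here either.

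Promoters from 250 bases before to 50 bases after the start of the gene, credited to RefSeq on GRCm38.p6, were at hand for 30 members and searched on both strands. The Sp1 motif GGGGCGGGG was in 8 of 30 (26.7%), against 12.9% of 27025 genes, namely Idh1, Mdh2, Me1, Mpc1, Ogdh, Pdhb, Sucla2 and Suclg2. The TATA motif TATAAA was in 0 of 30, against 15.7% of genes. The motifs of NRF1 (GCGCATGCG), GABPA (CCGGAAGT) and ERR (AAGGTCA), factors known for driving mitochondrial genes, were each in 1 promoter (3.33%), against 1.95%, 4.31% and 5.38% of genes. A match is a run of letters and no evidence of binding.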

How the data were processed

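For each library, the authors deposited a table of transcript models with the raw count of long reads on each, not normalized. Models came from TALON, which places each read on an annotated or a new model, per the file headers. Build mm10 and GENCODE M21 are named in the deposited description files. Aligner, filters and strand setting: not given in the sources used here. Exon coordinates, exon numbers and lengths in the deposited files were used as given. The members and lists were chosen with earlier results of these data known. Samples were mapped from the replicate numbers in the labels.

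Gene counts were sums over all models of a gene. Genes with at least 10 reads over both libraries were compared by Fisher's exact test, two-sided, at a Benjamini-Hochberg adjusted p of 0.05 (scipy 1.17.1). edgeR 4.0.16 and DESeq2 1.42.0 gave alternative error models and library sizes. A model was taken as the same in both libraries when its strand, chromosome and intron chain were equal. Unspliced incomplete reads were pooled per gene and genomic reads left out of leading shares, which needed 20 reads in each library. Splice choices in Mpc1, Acly and Ogdh were counted among reads that span both flanking sites. For Idh3g, reads with either end of the preceding exon were counted. The last exon of Idh3b and the early terminal exon of Me3 were counted among reads that share the splice site before the choice. For the stretch at the start of Me3, reads without the intron needed only the next intron. Exon bases and reading frames were rebuilt from GENCODE M21 transcripts. Intervals are exact Clopper-Pearson 95%, and intervals and floors of 3 reads (2.26 and 2.20 CPM) cover counting error only. Molecular identifiers are not described. The tests were checked on simulated data. Named are all members with their leading model, and the related genes past the threshold or among the 5 highest, with Me2 besides. Other models are named with at least 10% and 5 reads in each library or, if unannotated and spliced, 2 reads in each.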

Additional observations from a re-analysis of the deposited data

Results flagged for a closer look

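Reads on unannotated antisense loci, which enter none of the gene levels, were above the limit of 3 reads that a count of 0 allows in both libraries for 3 members. Such loci over Idh1 held 4 reads in replicate 1 and 6 in replicate 2, those over Idh3b held 5 and 4, and those over Ogdhl held 15 and 10. All antisense reads over Idh1 and Ogdhl were unspliced, while 1 of 9 over Idh3b was. The strand setting of the libraries is not given in the sources used here, so sense and antisense reads of 1 locus may not be told apart.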

How the results depend on the processing

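The count of 707 genes differing between the libraries was 659 with TMM library sizes, 714 with DESeq2 size factors, 602 with no minimum of reads and 519 without genomic and incomplete reads, and 49 with edgeR's exact test. Of the members, 4 were called, 3 with TMM sizes or no minimum (Pdhx lost), 4 with DESeq2 size factors, 2 without genomic and incomplete reads (Cs and Pdha1) and 0 with edgeR's exact test. TMM sizes turned the split of all calls from 305 higher in replicate 1 and 402 higher in replicate 2 to 343 and 316. The members' mean sum of 6543 CPM was 5717 without genomic and incomplete reads and 6857 with annotated-gene reads as the total. Of the single levels, 20 of 31 moved beyond 1 SD without genomic and incomplete reads, 8 of them by over 1.5 times: Ogdh from 78.0 to 30.8 CPM, Pcx from 30.3 to 14.0, Pdk1 from 16.3 to 7.05, Acly from 94.9 to 49.7, Dlst from 63.8 to 39.7, Me1 from 39.3 to 24.5, Me3 from 69.6 to 45.5 and Ogdhl from 44.7 to 0.366; 11 moved with annotated-gene reads as the total. The median leading share of 82.7% was 99.6% among annotated transcripts alone. Without genomic and incomplete reads, Pdk3 took 58.4% of its family, Idh2 61.3%, Ogdh 98.9% and Mdh1 53.3%. Per kilobase, Pdha1 took 39.2%, Idh3a 33.2%, Idh2 64.0%, Ogdh 20.2%, Sucla2 48.5%, Mdh1 45.4% and Me3 73.0%. The cause of these shifts was not tested, beyond the reads and lengths each setting removes or divides by. Leaving out either library moved none of the 31 levels beyond 1 SD, which with 2 libraries follows from how the SD is made. No paired analysis was possible because the labels give 1 group. Depth limits Pdk4, Pdk1, Pcx, Suclg2, Aco1 and Me1 most, with fewer than 60 reads in each library.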
